A study of Drosophila melanogaster with 9 samples.

Results

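The genes described here are 10 heat shock and chaperone genes of Drosophila melanogaster, taken by their deposited gene symbols from the 13140 genes counted in all 9 RNA-seq libraries of the series. They are the small heat shock protein genes Hsp22, Hsp23, Hsp26, Hsp27 and Hsp67Bc, the Hsp70 family genes Hsp68, Hsc70-3, Hsc70-4 and Hsc70-5, and the Hsp90 gene Hsp83. All 10 were among the 12913 genes that passed the filter on low counts. The libraries were made from polyA-selected RNA of whole adult flies aged 10 to 11 days, with 3 libraries in each of 3 groups. GP/P flies were F2 descendants of obese grandfathers through the F1 father. GP/M flies were F2 descendants of obese grandfathers through the F1 mother. WT flies were controls with no grandparental obesity. The flies of all 3 groups shared the Canton S background and were wild-type in genotype, so the groups differed by ancestry and none of the sequenced flies is labelled as carrying a mutation. The obese forebears were AkhR mutants, as the title of the series has it; AkhR encodes the receptor for the fat-mobilising adipokinetic hormone. The labels describe independent biological and experimental replicates with 1 set of samples from each experiment, and libraries with the same replicate number are therefore called a set.

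Heat shock proteins bind unfolded or partly folded proteins. Small heat shock proteins hold them in a soluble state without using ATP, and Hsp70 proteins, aided by J proteins, refold or pass them on in cycles of ATP hydrolysis. Hsp90 matures a narrower range of clients such as kinases and steroid receptors. In flies the heat shock factor Hsf induces many of these genes under heat and other stress, while the cognate (Hsc) genes are transcribed at high levels without stress, and small heat shock genes such as Hsp22 are known to be more active in aged flies.

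Total counts were 21777434 to 28166388 per library, and the 10 genes together held 0.481% to 0.519% of them. Counts were 84 or more for each of the 10 genes in every library, and the lowest were those of Hsp67Bc. No gene of the series differed between the groups at an adjusted p under 0.05, whereas 2024 genes (15.7% of 12913) differed between sets. Markers of the tissues in a whole fly were present, with summed levels of 8430 to 9192 CPM (counts scaled to a common library size) for 4 photoreceptor genes and 1808 to 2326 CPM for 5 flight muscle genes. Male accessory gland genes summed to 2503 to 2849 CPM and testis genes to 1313 to 1499 CPM, while 4 genes of yolk and eggshell, markers of the female fat body and ovary, summed to 13.8 to 23.7 CPM. In whole flies fewer cells of a type and less RNA per cell cannot be told apart. Nothing besides the word independent describes how the replicates were raised, so p-values measure the spread between these libraries.

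Levels were compared between genes as CPM per kilobase of exon, with exon lengths of the reference annotation. Hsc70-4, the major cytosolic Hsp70 cognate, stood highest at 897 ± 31.2 CPM per kilobase (SD, n = 9), rank 79 of 12618 genes with a length. Hsp83 followed at 379 ± 25.4 CPM per kilobase, Hsc70-3, the BiP chaperone of the endoplasmic reticulum, at 214 ± 8.45, and Hsc70-5, the mitochondrial cognate, at 133 ± 2.50. The small heat shock genes Hsp26, Hsp23, Hsp22 and Hsp27 came next at 70.6, 43.6, 36.6 and 29.5 CPM per kilobase. Hsp68, a heat-inducible Hsp70 gene, was at 25.7 CPM per kilobase, and Hsp67Bc was lowest at 4.12. The ranges over the 9 libraries did not overlap between any neighbours in this order, and the smallest step was 1.15-fold, between Hsp27 and Hsp68. The place of Hsp22 is uncertain, because its exon length of 1900 bases includes a transcript that it shares with Hsp67Bb. The labels name no heat treatment, and whether the flies were free of other stress was not tested.

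Some of these values rest on reads that may belong to another gene. Hsp22 and Hsp67Bb overlap on the same strand in the reference annotation, and the counts of Hsp67Bb were 103% to 106% of those of Hsp22 in every library, 53 to 88 counts more. The values of Hsp22 therefore appear to be those of reads that the deposited counts assign to both genes, which no source used here states. On the other strand Hsp68 overlaps CG6000, which had 21.8% to 30.4% of its counts, and Hsp83 overlaps CG14966, which had 0.606% to 0.846% of its counts. No source used here says whether counting took strand into account.

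Hsp22 encodes a small heat shock protein of mitochondria. It had 69.2, 74.2 and 64.2 CPM in sets 1, 2 and 3 of GP/P, and 72.9, 67.6 and 69.9 CPM in those of GP/M, against 76.5, 70.1 and 61.6 CPM in those of WT. The WT libraries held both the highest and the lowest of the 9 values, so the groups overlapped. Hsp23, a cytosolic small heat shock protein, had 40.4, 39.0 and 37.9 CPM in GP/P and 40.9, 40.9 and 37.8 CPM in GP/M, against 36.4, 37.7 and 36.2 CPM in WT. Every library of GP/P and GP/M was above every WT library for this gene, by as little as 37.8 against 37.7 CPM.

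Hsp26 encodes another cytosolic small heat shock protein. Its levels were 73.9, 69.8 and 71.8 CPM in GP/P and 76.4, 73.5 and 68.0 CPM in GP/M, against 74.6, 69.0 and 64.5 CPM in WT. Hsp27, whose protein is found in the nucleus, stood at 50.01, 47.3 and 49.1 CPM in GP/P and 49.7, 48.4 and 46.5 CPM in GP/M, against 49.9, 47.4 and 44.9 CPM in WT. For both genes the WT library of set 3 was the lowest of the 9 and the groups overlapped. Hsp67Bc, related to the mammalian HSPB8, had 4.09, 3.79 and 3.90 CPM in GP/P and 4.23, 3.62 and 4.06 CPM in GP/M, against 4.40, 3.85 and 4.65 CPM in WT. It was the gene with the fewest counts, 84 to 111 per library, and in every set the GP/P and GP/M libraries were below the WT library.

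Among the Hsp70 family genes, Hsp68 had 59.0, 56.7 and 57.2 CPM in GP/P and 56.3, 54.8 and 61.4 CPM in GP/M, against 54.3, 57.6 and 58.1 CPM in WT, and the ranges of the groups overlapped, with GP/M 3 the highest library and WT 1 the lowest. Hsc70-3 had 815, 778 and 758 CPM in GP/P and 815, 749 and 780 CPM in GP/M, against 725, 750 and 757 CPM in WT. The GP/P libraries were all above the WT libraries for Hsc70-3, with 758 against 757 CPM at the closest, while the GP/M library of set 2 fell within the WT range. Hsc70-4 had 2575, 2444 and 2465 CPM in GP/P and 2535, 2331 and 2444 CPM in GP/M, against 2419, 2377 and 2324 CPM in WT. Its GP/P libraries were all above WT, and its GP/M libraries overlapped WT. Hsc70-5 had 391, 388 and 393 CPM in GP/P and 397, 388 and 391 CPM in GP/M, against 372, 383 and 385 CPM in WT. All 6 libraries of obese ancestry were above the 3 WT libraries, within a total span of 1.07-fold.

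Hsp83 had 1125, 1245 and 1128 CPM in GP/P and 1078, 1209 and 1089 CPM in GP/M, against 992, 1156 and 1087 CPM in WT. In each set the order was GP/P, then GP/M, then WT, but the groups overlapped because set 2 was the highest set in all 3 groups.

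**Figure D1:**
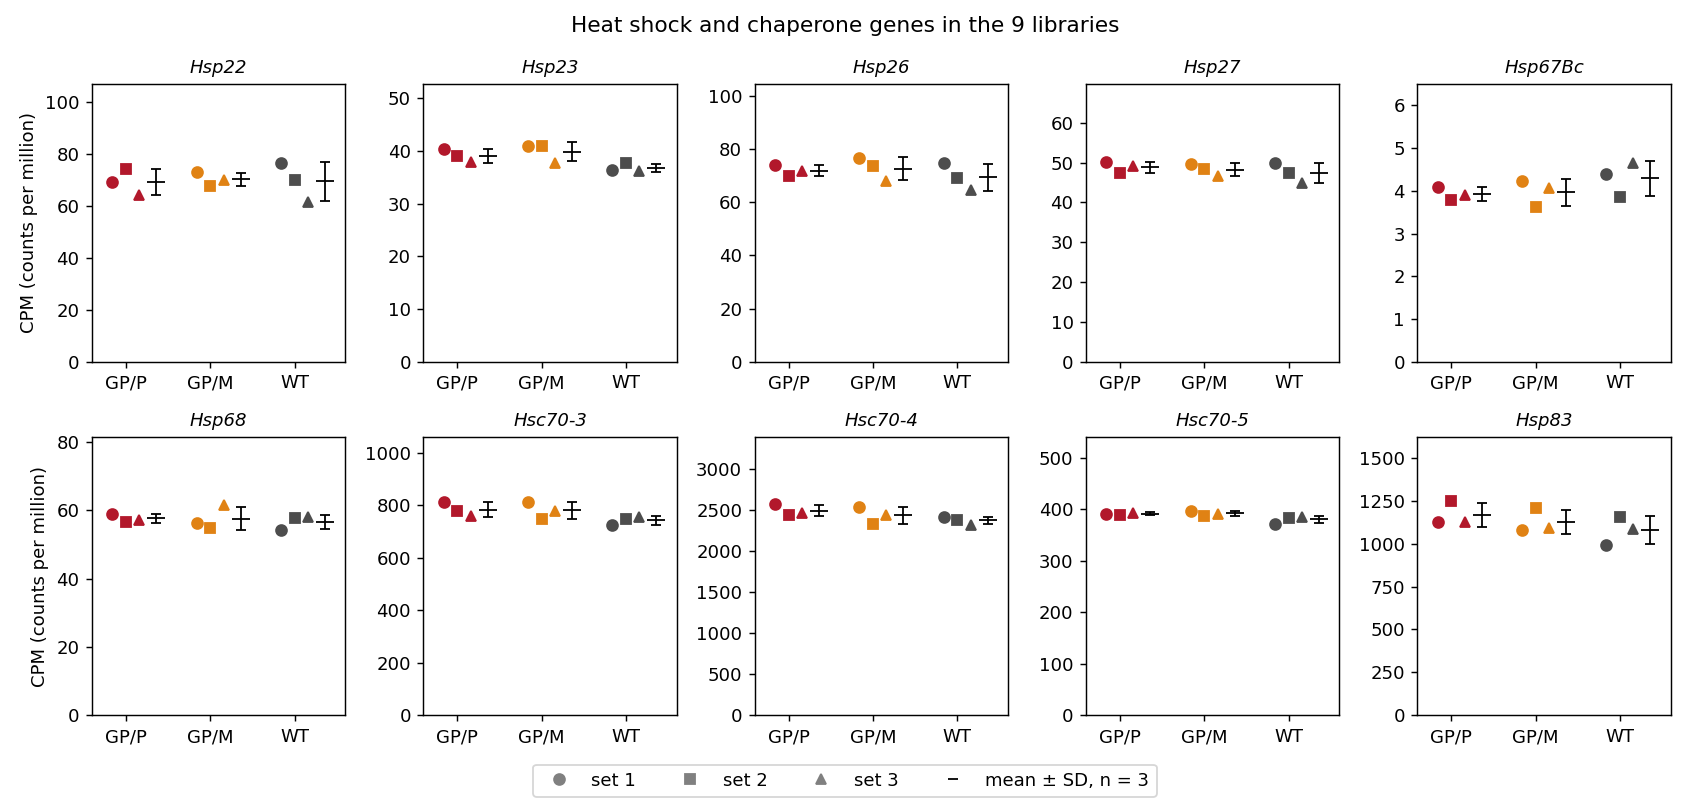
Level of each of the 10 genes in CPM (vertical axis, from 0, own scale for each gene) in the 9 libraries of GP/P, GP/M and WT, with sets as marker shapes and the mean ± SD of 3 libraries as bars. The groups lie close together for every gene; Hsp83 shows the square of set 2 on top in each group, at 1245, 1209 and 1156 CPM.

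The comparison of F2 flies with controls asks whether an obese grandfather left a difference in flies that carry no mutation, and that of GP/P with GP/M whether descent through the F1 father or the F1 mother makes a difference. None of the 10 genes passed the test in any of these comparisons (edgeR's quasi-likelihood test, Benjamini-Hochberg adjustment over 12913 genes), where 0% of all genes passed. Without adjustment 334 genes had p under 0.05 in GP/P against WT and 198 did in GP/M against WT. The number was 220 between GP/P and GP/M and 260 for both lineages together against WT, and 0 of the 10 were among them in each case. DESeq2 and limma-voom also called 0 genes in each comparison, with between 77 and 168 genes at an unadjusted p under 0.05 by DESeq2 and between 200 and 337 by limma-voom.

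In GP/P against WT the fold changes of the 10 genes were 0.914 to 1.08. The largest was that of Hsp83, at 1166 ± 68.6 CPM in GP/P and 1078 ± 82.6 CPM in WT (SD, n = 3 each), a fold of 1.08 with a 95% interval of 0.975 to 1.20 and an edgeR adjusted p = 1.00. Hsp23 followed at 1.06-fold (0.977 to 1.15), with Hsc70-3 at 1.05-fold (0.975 to 1.14) and Hsc70-4 at 1.05-fold (0.972 to 1.14). Hsp67Bc was at 0.914-fold with the widest interval, 0.769 to 1.09. For the 9 genes other than Hsp67Bc the intervals lay within 0.890 and 1.20, so changes beyond that range are outside the 95% interval of each of them. The median log2 fold change was 0.05 over the 10 genes and 0.003 over all genes tested, and 8 of the 10 were above 0 against 51.8% of all genes. GP/P libraries lay wholly above WT for 4 of the 10 genes (Hsp23, Hsc70-3, Hsc70-4 and Hsc70-5), where 4.07% of all genes did, and wholly below WT for 0 of the 10, where 4.41% did.

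In GP/M against WT the fold changes were 0.927 to 1.08, and 9 of the 10 were above 0. Hsp23 led at 39.9 ± 1.82 CPM in GP/M and 36.8 ± 0.796 CPM in WT (SD, n = 3 each), a fold of 1.08 with an interval of 0.997 to 1.18. The edgeR adjusted p of Hsp23 was 1.00, from 0.0577 before adjustment over all genes. Hsc70-3 was at 1.05-fold (0.972 to 1.14), Hsp26 at 1.05-fold (0.953 to 1.15) and Hsp83 at 1.04-fold (0.941 to 1.16). The median log2 fold change was 0.04 over the 10 genes and 0.002 over all genes. GP/M libraries lay wholly above WT for Hsp23 and Hsc70-5, 2 of the 10, where 2.37% of all genes did, and wholly below it for 0 of the 10, where 2.53% did. The WT libraries are the same in both comparisons, so the GP/P and GP/M values are not independent of each other.

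Between GP/P and GP/M the fold changes were 0.980 (Hsp23) to 1.04 (Hsp83), and 5 of the 10 were above 0. All 10 genes had overlapping ranges here, while 3.68% of all genes lay wholly above and 3.24% wholly below. With both lineages against WT, the fold changes were 0.920 to 1.07 and 9 of the 10 were above 0. The 6 libraries lay wholly above the 3 of WT for Hsp23 and Hsc70-5, 2 of the 10, where 0.666% of all genes did; 0.620% of all genes and 0 of the 10 lay wholly below. Within sets, the mean of both lineages was above WT in 3 of 3 sets for 7 of the 10 genes and below in 3 of 3 for Hsp67Bc, against 12.18% and 12.96% of all genes. Some margins were small, such as 0.0002 on the log2 scale for Hsp27 in set 1 and 0.0057 for Hsc70-4 in set 2. The genes share the same WT libraries and are not separate observations. Leaving out WT 1, WT 3 or another library changed the sign of the small fold changes of Hsp22, Hsp26, Hsp27 and Hsp68 against WT, none of which were called.

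**Figure D2:**
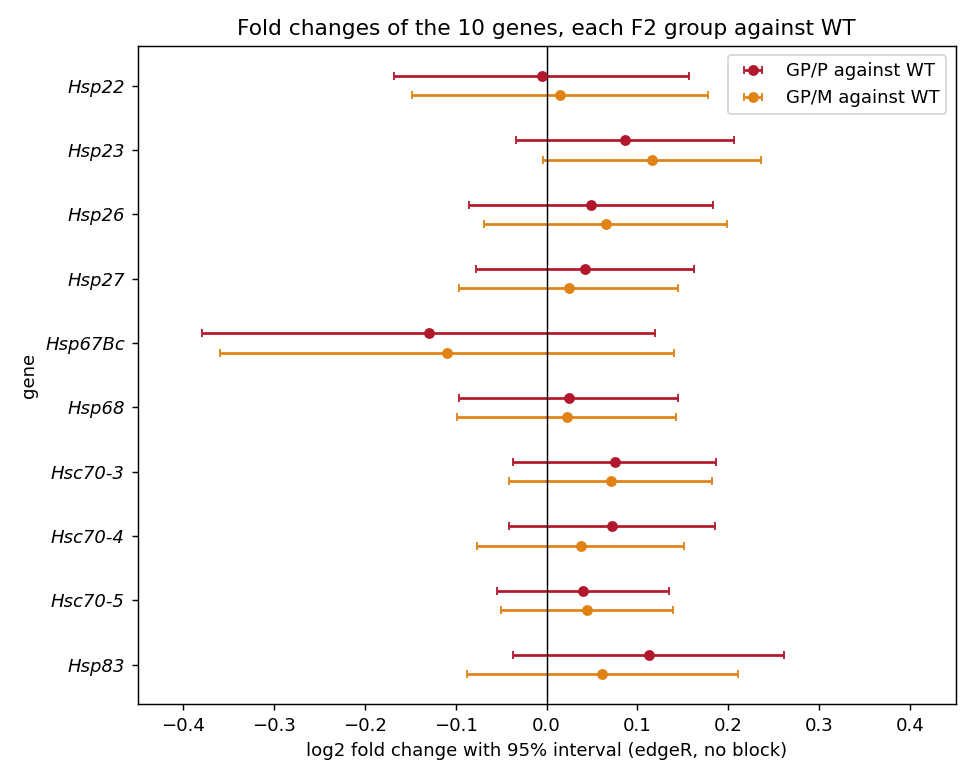
Log2 fold change (horizontal axis) of each gene in GP/P against WT (red) and GP/M against WT (orange), as points with 95% intervals from the edgeR fit. Every interval includes 0, and that of Hsp67Bc, the gene with the fewest counts, is the widest.

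Holding the set in the fit narrowed the intervals. With the replicate block, the interval of Hsp83 in GP/P against WT was 1.03 to 1.14 and its edgeR p was 0.00287 before adjustment, with an adjusted p of 0.557. In GP/M against WT the block gave Hsp23 an interval of 1.01 to 1.16 and an edgeR adjusted p of 0.999, from 0.0286 before adjustment. With the block, 2 of the 10 genes (Hsc70-4 and Hsp83) had an unadjusted p under 0.05 in GP/P against WT, beside 6.85% of all genes, and Hsp23 did in GP/M against WT, beside 3.50%. None of the 10 did between GP/P and GP/M, beside 4.58%, and 3 did with both lineages against WT (Hsp23, Hsc70-3 and Hsp83), beside 5.07%. After adjustment 0 genes passed in each of these comparisons. The authors' deposited table gives Hsp83 in GP/P against WT a p of 0.0190 and an adjusted p of 1.00.

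The sets asked how far these genes differed between experiments, with the group held in the fit. Of the 10 genes, 1 differed between any sets (Hsp83, edgeR adjusted p = 0.00303), against 15.7% of all genes, a count of 2024 that was 1347 without GP/M 1 and 1030 without GP/M 3. Hsp83 averaged 1203 ± 44.6 CPM in set 2 and 1065 ± 67.5 CPM in set 1 (SD, n = 3 each), a rise of 1.13-fold (1.08 to 1.19; edgeR adjusted p = 0.00535), and was higher in set 2 within all 3 groups, by 0.15, 0.16 and 0.22 on the log2 scale in GP/P, GP/M and WT. Between these sets 2.47% of all genes passed, 1.49% as higher and 0.984% as lower in set 2, and of the 10 genes 1 was higher and 0 lower. Hsp83 averaged 1101 ± 23.1 CPM in set 3 and 1203 ± 44.6 CPM in set 2, a fall to 0.916-fold (0.873 to 0.961; edgeR adjusted p = 0.0301), lower in 3 of 3 groups. Here 5.92% of all genes passed, 4.31% as higher and 1.61% as lower in set 3, and of the 10 genes 0 were higher and 1 was lower. These shares changed with the libraries in the fit, and leaving 1 out also leaves fewer samples. The 764 genes called were 49 without GP/M 2, 90 without GP/M 3, 155 without GP/P 2, 473 without WT 3 and 1150 without WT 1. The 319 genes called in set 2 against set 1 were likewise 112 without GP/P 2, 125 without GP/M 2, 167 without GP/M 1, 177 without WT 1 and 190 without WT 2. The 3 libraries of set 2 lay wholly above those of set 1 for Hsp83, as for 10.4% of all genes. Those of set 3 lay wholly below those of set 2, as for 14% of all genes. The difference between any sets was called under every alternative and without each library in turn, with adjusted p of 6.1e-04 to 0.0371.

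The rise in set 2 was not called without GP/M 2 (edgeR adjusted p = 0.0665) or GP/P 2 (0.0772). The fall in set 3 against set 2 was not called without GP/M 2 (0.192), GP/M 3 (0.200), GP/P 2 (0.164), GP/P 3 (0.0981) or WT 2 (0.0815), nor without the group term (0.0677). DESeq2 called both, with adjusted p of 0.00108 and 0.0314. Hsp67Bc lay opposite, at 3.75 ± 0.119 CPM in set 2 against 4.24 ± 0.153 CPM in set 1 (SD, n = 3 each), a fold of 0.886 with an interval of 0.747 to 1.05, and it did not pass. It lay wholly below set 1 in set 2, as did Hsp26 and Hsp27 and 8.92% of all genes, and wholly above set 2 in set 3, as did 14.7% of all genes.

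Set 3 against set 1 was the contrast with the most calls, at 18.7% of all genes, 11.7% higher and 6.92% lower in set 3. The 2409 genes called were 1256 to 1499 without GP/M 1, GP/M 3, WT 1 or WT 3. Of the 10 genes 0 were higher and 1 was lower. Hsp26 averaged 68.1 ± 3.64 CPM in set 3 and 75.0 ± 1.26 CPM in set 1 (SD, n = 3 each), a fall to 0.908-fold (0.853 to 0.967; edgeR adjusted p = 0.0298), lower in 3 of 3 groups with no overlap. This call was lost with DESeq2 (adjusted p = 0.103) and without GP/M 1 (0.0923), GP/M 3 (0.151), WT 1 (0.141) or WT 3 (0.172). Hsp22 had a lower fold, 0.896 (0.827 to 0.970), and missed the threshold at an edgeR adjusted p = 0.0512; it was called without the group term (0.0320) and without GP/M 2 (0.0302), GP/M 3 (0.0159), GP/P 1 (0.0294) or GP/P 2 (0.0477). Hsp27 was also wholly lower in set 3, at 46.8 ± 2.11 CPM against 49.9 ± 0.151 CPM in set 1, and did not pass (adjusted p = 0.192). Hsp26 and Hsp27, 2 of the 10, lay wholly lower in set 3 than in set 1, as did 17% of all genes, and 0 of the 10 lay wholly higher, where 18.4% of all genes did.

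**Figure D3:**
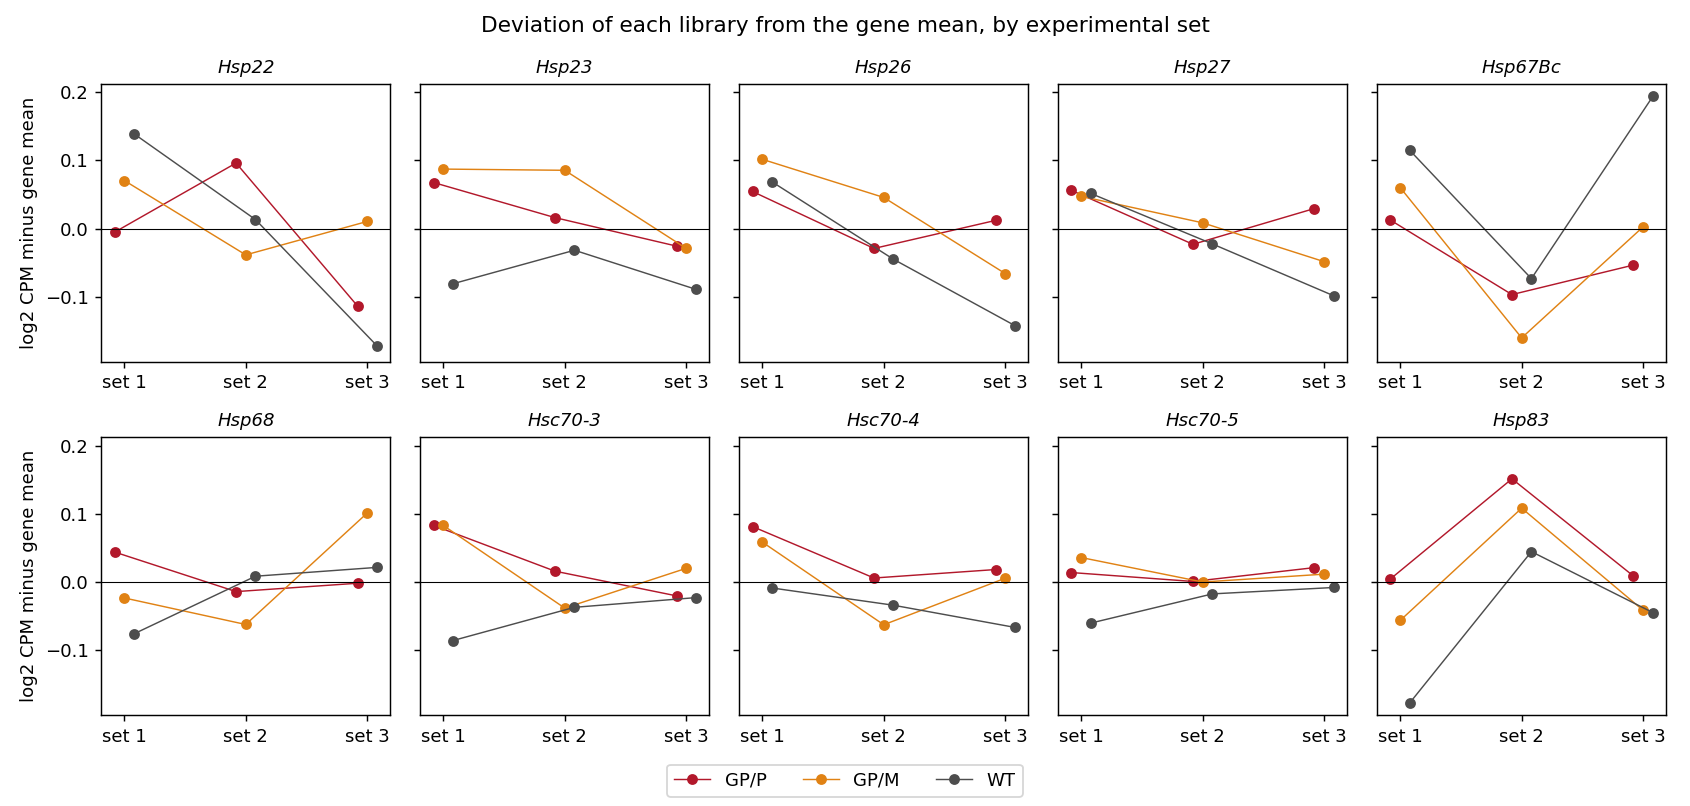
Log2 CPM of each library minus the mean of the 9 libraries (vertical axis, shared scale) by experimental set, with GP/P in red, GP/M in orange and WT in grey; lines join libraries of a group and mark no order in time. Hsp83 is highest in set 2 in each group, while Hsp26 is lower in set 3 than in set 1 in each group.

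The reference annotation places the 5 small heat shock genes on chromosome arm 3L in a run of 8 neighbouring coding genes, in the order Hsp67Bc, Hsp67Bb, Hsp22, CG4461, Hsp26, Hsp67Ba, Hsp23 and Hsp27. Hsp67Bb carries a heat shock name but encodes a rhodanese-domain protein, not a small heat shock protein. Between set 3 and set 1 all 8 fold changes were below 0, from -0.16 to -0.01 on the log2 scale with a median of -0.11, where the median of all genes was -0.007. Of all genes 48.3% were above 0 in this comparison. Hsp26 and CG4461, 2 of the 8, passed as lower. Of all genes 6.92% passed as lower and 18.7% in either direction. Between set 2 and set 1 all 8 were also below 0, with a median of -0.06 and 0 called, where 52.6% of all genes were above 0. Between set 3 and set 2, 6 of the 8 were below 0 and 0 were called. CG4461 averaged 194 ± 3.62 CPM in set 3 and 214 ± 9.89 CPM in set 1 (SD, n = 3 each), 0.904-fold with an edgeR adjusted p = 0.0159. Hsp67Bb, which appears to share reads with Hsp22 and is not taken as separate evidence, was at -0.15 with an edgeR adjusted p of 0.0584. Hsp67Ba and Hsp67Bc, the lowest of the run with set means of 3.75 to 6.12 CPM, were at -0.01 and -0.02.

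**Figure D4:**
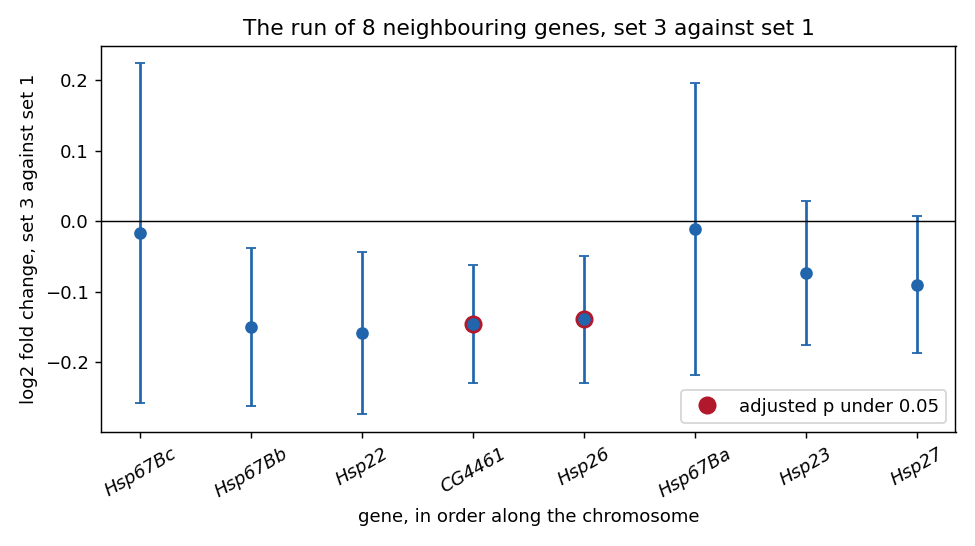
Log2 fold change in set 3 against set 1 (vertical axis, with 95% intervals) of the 8 neighbouring coding genes that hold the small heat shock genes, in their order along the chromosome. All 8 points lie below 0, and CG4461 and Hsp26, in red, passed at an adjusted p under 0.05.

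Tissue markers moved with the sets as well. Of 34 marker genes tested, 11 were higher and 7 lower in set 3 against set 1, where 11.7% and 6.92% of all genes were. The 3 fat body genes summed to 3600 to 4145 CPM in set 3, 3131 to 3253 CPM in set 2 and 2917 to 2975 CPM in set 1. The 5 flight muscle genes summed to 2257 to 2326 CPM in set 3, 1983 to 2089 CPM in set 2 and 1808 to 2146 CPM in set 1. The 4 neuron genes summed to 455 to 481 CPM in set 3, 416 to 438 CPM in set 2 and 409 to 436 CPM in set 1. The 5 testis genes summed to 1313 to 1353 CPM in set 3, 1426 to 1466 CPM in set 2 and 1413 to 1499 CPM in set 1. The 4 midgut genes summed to 2025 to 2136 CPM in set 3, 2093 to 2124 CPM in set 2 and 2447 to 2686 CPM in set 1. That sum is mostly alphaTry and Jon65Aiv, both called lower in set 3 than in set 1. The other midgut genes went the other way and were not called. Mean betaTry was 1.36 CPM in set 3 and 1.07 CPM in set 1. Mean LysX was 13.8 CPM in set 3 and 10.8 CPM in set 1, with GP/M 3 alone at 21.9 CPM. Fat body, muscle and neuron sums were highest in set 3, where Hsp26 was lowest, and the testis sum was lowest there. Within the fat body list apolpp and Lsp2 were higher in set 3 than in set 1, while fit was lower (111 ± 7.65 CPM in set 3 and 127 ± 4.18 CPM in set 1, SD, n = 3 each). The photoreceptor sum is mostly ninaE, which was not called, but norpA (1.19-fold) and ninaC (1.10-fold) were higher in set 3 than in set 1 and also than in set 2. Of the 4 female fat body and ovary genes tested Yp2 was higher in set 3, at 2.74 CPM against 1.23 CPM in set 2 and 1.27 CPM in set 1. The untested ovary gene osk had 17, 6 and 24 counts in the GP/P, GP/M and WT libraries of set 3 and 1 to 3 counts in the other libraries. WT 3 was the library with the lowest Hsp22, Hsp23, Hsp26, Hsp27 and Hsc70-4 and the highest Hsp67Bc. It had the highest counts of Yp1, Yp2 and osk, and the highest Yp3 in CPM. Cp18, of the same list, had 17 counts in WT 3 and 29 in WT 1, its highest library. Its mean was 0.635 CPM in set 3 and 0.779 CPM in set 1, not called. In set 2, where Hsp83 was highest, accessory gland sums were 2674 to 2849 CPM, against 2503 to 2805 CPM in set 1, with no gene of that list called between these sets. In set 3 the sums were 2556 to 2677 CPM. Of the 5 genes, Acp62F and Acp53Ea were called between any sets and were called lower in set 3 than in set 2. Mean Acp62F was 144 CPM in set 3 and 167 CPM in set 2, and mean Acp53Ea was 457 CPM and 511 CPM. The part of tissue content in the set differences was not tested. Between the groups none of the 34 marker genes passed.

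The 10 genes differed in how steady they were. Hsc70-5 had an SD of 0.03 in log2 CPM over the 9 libraries, at the 1.04 percentile of all genes. Its coefficient of variation was 1.89%, where counting alone would give 1.02%. Hsc70-4, Hsp27, Hsp68 and Hsc70-3 lay between the 11.6 and 17.1 percentiles. Hsp23 and Hsp26 were at the 26.9 and 36.3 percentiles. Hsp83, Hsp22 and Hsp67Bc were at the 52.4, 53.5 and 61.9 percentiles. Because the SD also depends on the level, these percentiles compare genes of unlike depth: the median SD was 0.17 below 10 CPM, 0.08 from 10 to 100 CPM, 0.06 from 100 to 1000 CPM and 0.07 among the 95 genes at 1000 CPM or more. The SD of Hsp83, in the last of these bands, was 0.10. For Hsp67Bc the counting error, 9.97%, exceeded the observed coefficient of variation of 7.91%. Of the sum of squares of Hsp83 in log2 CPM, 67.1% lay between sets and 26.1% between groups, where the medians over all genes were 41.5% and 14.9%. For Hsc70-5 the shares were 5.45% between sets and 59.8% between groups, and for Hsp23 they were 28.2% and 58.7%. The shares are descriptive, and neither gene passed in any comparison between the groups.

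**Figure D5:**
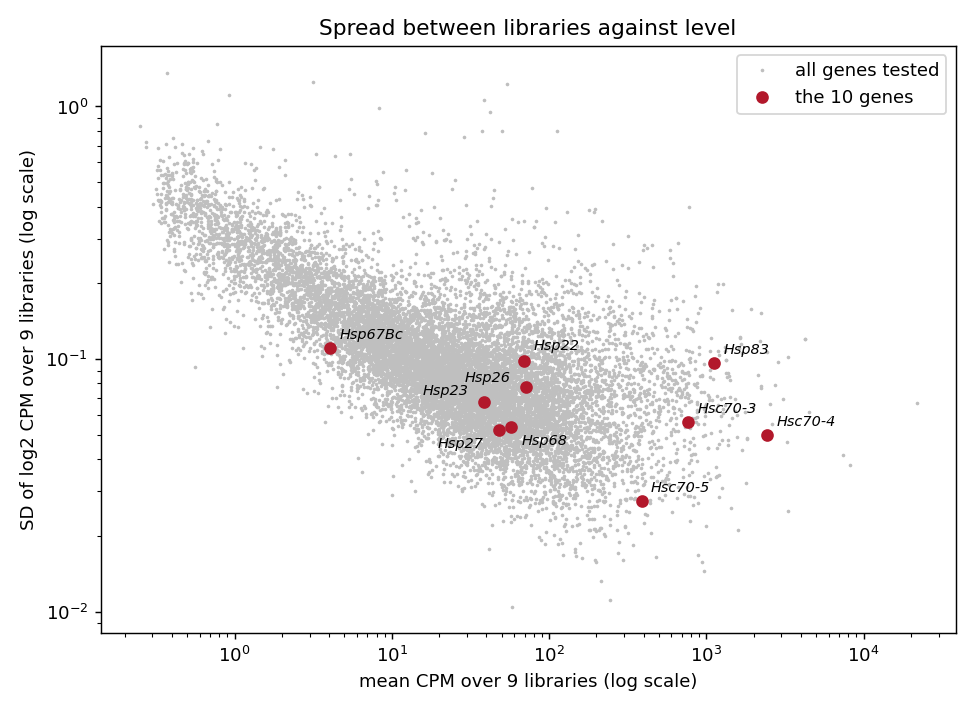
SD of log2 CPM over the 9 libraries (vertical axis, log scale) against mean CPM (horizontal axis, log scale) for 12913 genes, with the 10 genes in red. Hsc70-5 lies near the lower edge of the cloud, and Hsp83 lies above the median of genes at its level.

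Among the 45 pairs of the 10 genes, 30 had a positive correlation of log2 CPM over the 9 libraries, with a median Pearson's r of 0.172. Hsp26 and Hsp27 followed each other most closely, with r = 0.957 (exact permutation p = 2.3e-04, adjusted over 45 pairs 0.0104) and Spearman's rho = 0.900 (exact permutation p = 0.00203, adjusted 0.0456). Leaving out the 2 libraries farthest from the median of Hsp26 gave r = 0.928, and removing the set means gave 0.901. Hsp67Bc and Hsp83 ran opposite by rank, with rho = -0.917 (exact permutation p = 0.00131, adjusted 0.0456) and r = -0.796 (exact permutation p = 0.0108, adjusted 0.162). Their r was -0.930 without the 2 libraries farthest from the median of Hsp67Bc and -0.512 with set means removed. The coefficient of variation of Hsp67Bc, 7.91%, was below the 9.97% of counting alone, so its differences between libraries are within counting error. Hsc70-3 and Hsc70-5 had r = 0.799 (exact permutation p = 0.00725, adjusted 0.162) and rho = 0.817 (exact permutation p = 0.0108, adjusted 0.155), with r = 0.801 without 2 libraries and 0.897 with set means removed. All 6 pairs within the Hsp70 family were positive, as were 6 of 10 within the small heat shock genes. The libraries of a set or group are not independent draws in these tests, and the 45 pairs share libraries and depth.

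Outside the 10 genes, the profile most like their mean profile over the 9 libraries was that of CG11417 (r = 0.936), followed by CG31496 (0.927), CG14540 (0.926), Jon99Fii (0.918) and CG2144 (0.918), of 9232 genes at a mean of 10 CPM or more. CG11417 had 11.7, 11.7 and 10.7 CPM in GP/P and 12.0, 11.1 and 11.2 CPM in GP/M, against 10.8, 10.8 and 10.6 CPM in WT. With the set means removed, 0 of these 5 were still among the closest 5, though their r was still 0.853 to 0.947.

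Other genes of protein folding were followed in 9 lists of 68 genes, of which 63 were in the tables and 62 were tested. None passed in any comparison between the groups, where 0% of all genes passed. Of the 6 inducible Hsp70 copies, the main heat-induced Hsp70 of flies, Hsp70Bb was the copy in the tables. It had 2, 8 and 9 counts in GP/P and 7, 4 and 14 counts in GP/M, against 3, 10 and 5 counts in WT, below the filter. The copies are near-identical, so where reads of the others went is uncertain, and the other copies were not analysed here.

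The TRiC chaperonin, a cytosolic ring that folds actin and tubulin, had all 8 subunit genes above 0 in GP/P against WT (log2 0.05 to 0.16) and in GP/M against WT (0.03 to 0.13), with medians of 0.08 and 0.07 beside 0.003 and 0.002 over all genes. The smallest p was that of CCT1, at 44.5 ± 1.76 CPM in GP/P and 39.9 ± 2.28 CPM in WT (SD, n = 3 each), a fold of 1.11 (1.02 to 1.22). The edgeR adjusted p of CCT1 was 1.00, from 0.0194 before adjustment. In GP/M CCT1 was at 43.6 ± 1.23 CPM, 1.09-fold against WT. The 3 other Hsp70 cognates and Hsp110 were above 0 in both comparisons as well, led by Hsc70-1 at 1.04-fold in GP/P and Hsc70Cb at 1.03-fold in GP/M. The list of 12 endoplasmic reticulum genes had 10 above 0 in GP/P and 9 in GP/M, and its smallest p was that of Gp93, the Hsp90 of that compartment, at 1.06-fold and 1.07-fold. Of all genes 51.8% were above 0 in GP/P against WT and 51.7% in GP/M against WT. Genes of these lists share the same WT libraries and are not separate observations.

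The co-chaperones of Hsp90 were split, with 5 of 9 above 0 in each comparison, and the smallest p was that of the immunophilin gene Fkbp59, at 0.938-fold in GP/P (0.878 to 1.00) and 0.927-fold in GP/M (0.867 to 0.991), neither called. Of the 8 J protein genes 3 were above 0 in each comparison, and CG5001 had the smallest p at 0.922-fold in GP/P and 0.936-fold in GP/M. Of the 9 mitochondrial chaperones, 7 were above 0 in GP/P and 8 in GP/M, and Hsp60A was at 1.02-fold and 1.03-fold. Of the 6 heat shock regulators and partners 3 were above 0 in GP/P and 4 in GP/M, with the RNA gene Hsromega at 0.963-fold in GP/P and the autophagy receptor gene ref(2)P at 0.939-fold in GP/M. The list of 7 other small heat shock genes, on which Hsp67Bb stood by its name, had 2 above 0 in GP/P and 3 in GP/M, with CG13133 at 0.959-fold in GP/P and Hsp67Ba at 0.904-fold in GP/M.

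Between sets 8 of the 62 genes passed (12.9%), against 15.7% of all genes. Between set 3 and set 1, 4 were higher in set 3 and 7 lower, 17.7% of the 62 against 18.7% of all genes. Lower were the small heat shock genes l(2)efl (0.835-fold, edgeR adjusted p = 2.7e-04), CG4461 and CG7409 (0.906-fold), 3 of the 7 on that list. The mitochondrial chaperone genes Roe1 (0.920-fold) and l(2)tid (0.896-fold) were lower, 2 of 9. In the endoplasmic reticulum list the disulfide isomerase gene CaBP1 (0.881-fold) and the J protein gene P58IPK (0.889-fold) were lower, while the stress sensor genes Ire1 (1.19-fold) and Atf6 (1.10-fold) were higher. Also higher were ref(2)P (1.08-fold) and the polyubiquitin gene Ubi-p63E (1.08-fold), 2 of the 6 regulators and partners. The Hsp90 co-chaperones, J proteins, other Hsp70 cognates and TRiC subunits had none called. l(2)efl, the fly relative of alpha-crystallin B, averaged 111 ± 3.20 CPM in set 3, 113 ± 4.39 CPM in set 2 and 132 ± 2.96 CPM in set 1 (SD, n = 3 each), and was the gene of these lists that passed in set 2 against set 1 (0.852-fold, edgeR adjusted p = 0.00260). Between set 3 and set 2 none of the 62 passed, where 5.92% of all genes did, and l(2)tid came closest.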

How the data were processed

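Whole-fly polyA RNA was sequenced in 9 libraries (Trizol extraction, TruSeq kit, per the labels' protocols). The authors deposited raw counts per gene in 3 tables, 1 for each pair of groups, per the file headers, with the authors' log2 fold changes, p-values and adjusted p-values, which are quoted here only as deposited values. The submitters' processing notes name Novoalign, DESeq (no versions) and dm3. Another 18 columns of normalised values were not used. Where tables repeat a library, 0 values differed, and any pair of libraries differed by more than counting noise (chi-square per gene at least 3.28).

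Counts were fitted with edgeR 4.0.16 in R 4.3.3 (TMM, filterByExpr, robust quasi-likelihood F-test) over all 9 libraries with 3 groups, and adjusted over 12913 genes. Sets were compared in an additive fit of group and set. CPM are normalised; the prior count of log2 CPM was 2. A gene was called at an adjusted p under 0.05. Alternatives were DESeq2 1.42.0, limma-voom (limma 3.58.1), RLE size factors, no filter, only the groups compared, a threshold of 0.10, the replicate block, no group term and leaving out each library. The code was tested on simulated data. The 10 genes and the lists were chosen with earlier results of these data known. Named were all 10 genes and, of each other list, every gene that passed or else the gene with the smallest p, plus the 5 genes most alike.

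The replicate number was taken to pair libraries, because the design gives each experiment its own set of samples, and columns of the same number share a set code. Same-numbered libraries had correlated deviations from the group means (r of 0.066 to 0.293, 8 of 9 pairs over 0.1), other pairs -0.267 to 0.027. Deviations cancel out within a group, so positive values in same-numbered pairs force negative ones elsewhere on balance. The values of the other pairs are therefore no separate support for the pairing. The replicate block lowered the biological coefficient of variation to 4.36%, against 6.56% without it. Exon lengths and neighbours come from a reference annotation of another build than dm3, so no coordinates are given; 12627 identifiers matched its names. How multiply mapped reads and strand were handled is not stated in any source used here.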

Additional observations from a re-analysis of the deposited data

How the results depend on the processing

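Adding the replicate block changed no call between the groups: 0 genes and 0 of the 10 passed with it in each of the 4 comparisons, as without it. RLE size factors, limma-voom, no filter on low counts and only the groups compared kept every count of calls within 1.5 times. DESeq2 called fewer genes, with 1232 between any sets, 1379 in set 3 against set 1 and 456 in set 3 against set 2, and 0 of the 10 in set 3 against set 1. At an adjusted p under 0.10, 2 of the 10 passed between any sets and 2 in set 3 against set 1, with 1497 genes in set 3 against set 2 and 481 in set 2 against set 1. Without the group term, 2 of the 10 passed in set 3 against set 1 and 0 in set 3 against set 2. The cause was not tested. Hsp68 in GP/P against GP/M, 0.002 on the log2 scale, turned to -0.0009 with DESeq2 and -0.0007 with RLE size factors.

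Leaving out each library in turn gave 0 to 1 genes in each of the 4 comparisons of groups. These were GstD2 against WT without WT 3 and CR43263 in GP/P against GP/M without GP/M 3, genes chosen after their values were seen. Between any sets it gave 1030 to 2055 genes and 1 to 2 of the 10. The counts were 1256 to 2456 and 0 to 2 in set 3 against set 1, 49 to 1150 and 0 to 1 in set 3 against set 2, and 112 to 417 and 0 to 1 in set 2 against set 1. The lowest were without GP/M 3 (1030 and 1256), GP/M 2 (49) and GP/P 2 (112), with fewer samples in each fit.

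Signs that turned without a library, none of them of a called value, had these log2 ranges. In GP/P against WT they were -0.087 to 0.073 for Hsp22, -0.0042 to 0.108 for Hsp26 and -0.0032 to 0.039 for Hsp68. In GP/M against WT they were -0.063 to 0.095 for Hsp22, -0.013 to 0.067 for Hsp27 and -0.029 to 0.057 for Hsp68. With both lineages against WT they were -0.075 to 0.084 for Hsp22, -0.0051 to 0.075 for Hsp27 and -0.0044 to 0.040 for Hsp68. In GP/P against GP/M they were -0.077 to 0.030 for Hsp22, -0.063 to 0.022 for Hsp26, -0.009 to 0.041 for Hsp27, -0.082 to 0.028 for Hsp67Bc, -0.033 to 0.050 for Hsp68, -0.028 to 0.036 for Hsc70-3, -0.014 to 0.0061 for Hsc70-5 and -0.0014 to 0.103 for Hsp83. In set 3 against set 1 they were -0.067 to 0.022 for Hsp67Bc and -0.011 to 0.029 for Hsc70-5. In set 3 against set 2 they were -0.061 to 0.0071 for Hsp27, -0.016 to 0.042 for Hsc70-3 and -0.0073 to 0.040 for Hsc70-4. In set 2 against set 1 they were -0.112 to 0.014 for Hsp22, -0.032 to 0.015 for Hsp23, -0.042 to 0.037 for Hsp68 and -0.025 to 0.016 for Hsc70-5. Depth limited Hsp67Bc, whose 84 to 111 counts gave the widest intervals.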
